A study of Rattus norvegicus with 30 samples.

Results

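The genes described here encode the mitochondrial respiratory chain and ATP synthase. They were chosen by symbol: every measured gene whose symbol starts with Nduf, Uqcr or Atp5, or with Cox4, Cox5, Cox6, Cox7 or Cox8, and the genes Sdha, Sdhb, Sdhc, Sdhd, Cycs and Cyc1. Of 26913 genes on the array, with or without a symbol, 83 met this rule, and 80 of them passed the filter on dim probes that left 18410 genes in all. Of these 18410, 11322 had a symbol. The shares of all genes given below include those without one, which the rule could not reach. Cox7c, Cox8c and the pseudogene Cox6c-ps1 did not pass it. Each gene was read from its brightest probe. The 80 genes were 31 of complex I, 6 complex I assembly factors that share the Nduf prefix without being subunits (Ndufaf1, Ndufaf3, Ndufaf4, Ndufaf5, Ndufaf7 and Ndufaf8), 4 of complex II, 8 of complex III, cytochrome c (Cycs), 15 of complex IV and 15 of complex V. Cyc1, Cox7a1 and Ndufa4l2 were not analysed here.

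Adult male HsdCpb:WU rats, an outbred Wistar strain delivered at 8 weeks of age, inhaled copper oxide (CuO) nanoparticles through the nose on 5 consecutive days. They breathed clean air, a low dose of 3.3 mg/m3 or a high dose of 13.2 mg/m3, as equivalents of 6 hours a day, and lungs were taken 1 day (day 6) or 22 days (day 28) after the last exposure. Each of the 6 groups held 5 rats, with 1 array per rat. RNA of whole lung tissue, in Cy5, was hybridised against a common reference RNA, in Cy3, so every level below is a log2 ratio of lung over reference, and every fold change is a difference of such levels between groups of rats. The treatment label of the 0 mg/m3 rats also names the particle, but the protocol exposes them to air, and they served as controls here. In whole tissue, fewer cells of a type and less RNA per cell cannot be told apart.

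The respiratory chain passes electrons from NADH, through complex I, or from succinate, through complex II, to ubiquinone, and on through complex III and cytochrome c to complex IV, which reduces oxygen. Complexes I, III and IV pump protons, and complex V, the ATP synthase, uses the gradient to make ATP. Complex IV, cytochrome c oxidase, carries copper at its catalytic centres, and some of its subunits come as paired tissue forms: subunit 6a as a general form (Cox6a1) and a heart and skeletal muscle form (Cox6a2), and subunit 8 as a general form (Cox8a) and a form of muscle and brown fat in rodents (Cox8b). The proteins encoded by mitochondrial DNA lie outside the rule.

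The arrays had a median Cy5 intensity of 216 to 432, with 59.5% to 68.4% of probes well above background. Between rats of 1 group the log ratios correlated at 0.918 to 0.982 across probes. Markers of lung cells were well above background on all 30 arrays: 6 of 6 measured markers of alveolar type I cells, 6 of 6 of type II cells, 4 of 4 of club cells and 5 of 5 of ciliated cells. A rat stood apart by heart muscle RNA. The mean of 13 heart muscle markers was 4.53 in rat 4 of the air day 6 group, 1.93 in rat 49 (low dose, day 6), 1.00 in rat 83 (high dose, day 28) and 0.98 in rat 54 (low dose, day 28), against -1.20 to -0.24 in the other 26 rats. Heart muscle is rich in mitochondria, and rat 4 also had the highest mean over the 80 respiratory chain genes of its group, 0.23 against -0.22 to -0.12 in the other 4 air rats. The other 3 did not share 1 direction: rat 83 had the highest mean of its group (-0.10), but rats 49 and 54 had the lowest of theirs (-0.11 and -0.31). Because of the heart muscle markers, most counts below are also given without rat 4, and without all 4 of these rats.

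The first comparison set high dose rats against air rats on day 6, the day after the last exposure. Of the 80 genes, 14 passed the threshold (adjusted p under 0.05), 9 higher and 5 lower, or 17.5%, against 36.5% of all genes tested (21% higher and 15.5% lower). Their median log2 fold change was 0.03, beside 0.01 over all genes, and the median size of change, sign left out, was 0.16 beside 0.22. The 95% interval of 64 of the 80 fold changes lay within 1.5-fold in either direction (80%, beside 62.8% of all genes). All 5 high dose rats lay above all 5 air rats for 7 of the genes and below them for 3, which is 10 of 80, beside 27.8% of all genes.

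These counts depended on rat 4 and on the scaling. Without rat 4, 20 genes were higher and 4 lower (30%, against 34.4% of all genes), and without the 4 rats 23 were higher and 4 lower (33.8%, against 35.9%). Of the 14 genes, 13 passed again without the 4 rats, and the 14 that joined them were all higher. With slide as a block, 16 were higher and 7 lower (28.7%, against 40.6% of all genes). The split by direction was 9 to 5 with loess, 8 to 8 with the scanner's own log ratios, 8 to 8 with Cy5 alone, 2 to 1 with median centring and 6 to 12 in the authors' deposited table. The share called was 20% with the scanner's log ratios and with Cy5 alone, 3.75% with median centring and 22.5% in the authors' deposited table, against 37.9%, 39%, 28.5% and 37.4% of all genes. The median of the 80 genes ran from -0.05 in that table to 0.08 without the 4 rats, so no direction is given for the set. The high dose and low dose comparisons of a day share their air rats.

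**Figure D1:**
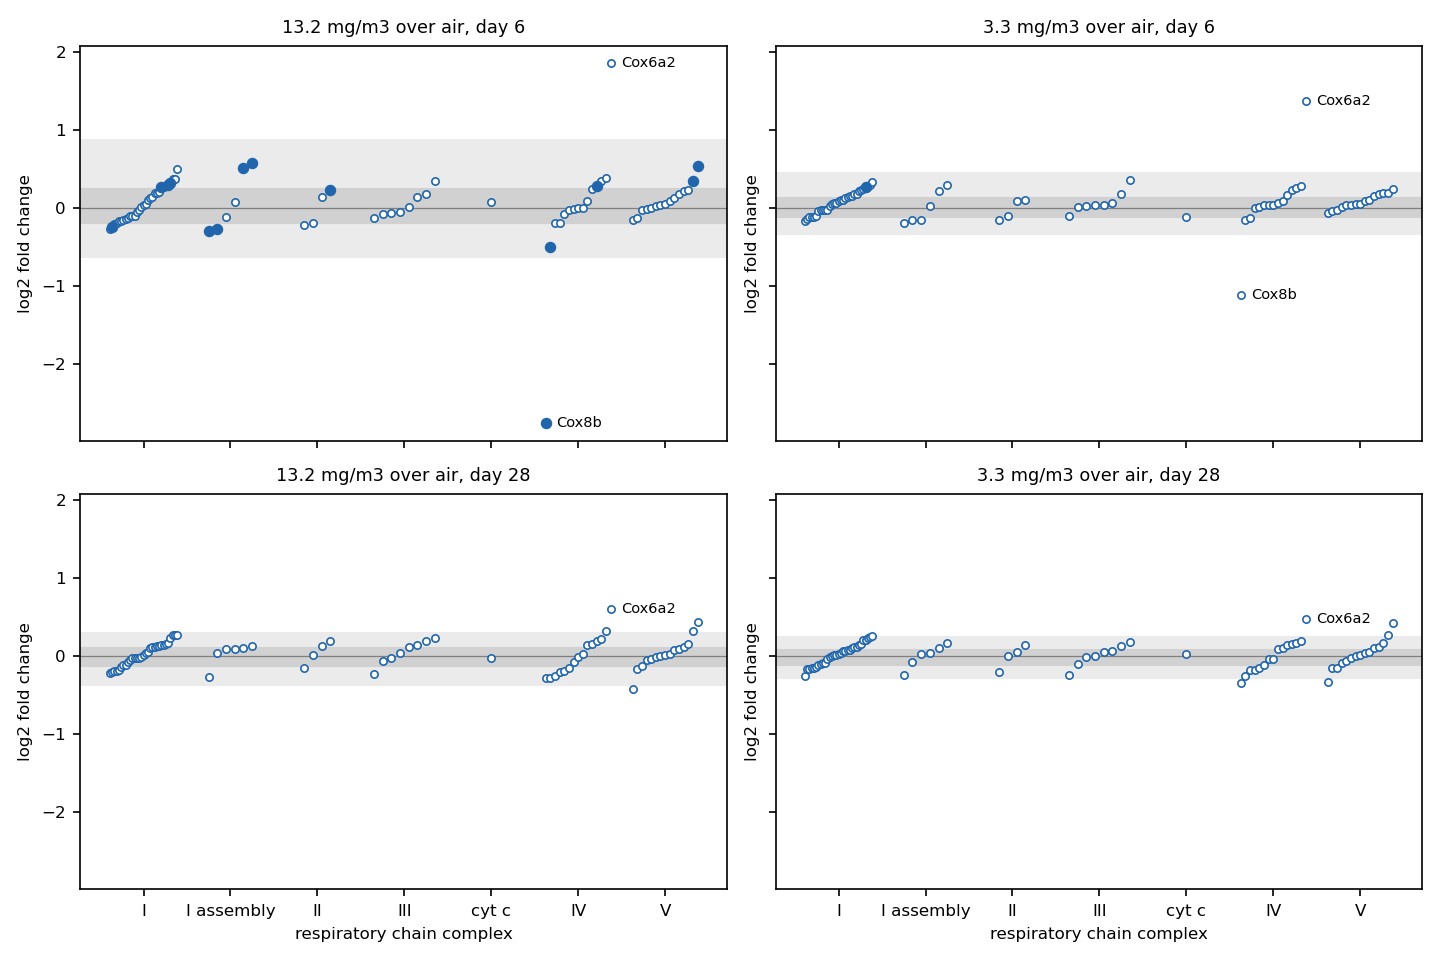
Each point is the log2 fold change (vertical axis) of 1 respiratory chain gene, by complex (horizontal axis), for the 4 comparisons of exposed rats with air of the same day, and filled points passed an adjusted p of 0.05. The dark band holds the middle 50% and the light band the middle 90% of all 18410 genes. At the high dose on day 6, Cox8b at -2.75 and Cox6a2 at 1.86 lie outside the light band, and no point is filled on day 28.

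By complex, complex I had 3 subunit genes higher and 1 lower of 31 (median 0.04), complex II 1 higher of 4 (-0.02), complex III 0 of 8 (-0.02), complex IV 1 higher and 2 lower of 15 (0.00), and complex V 2 higher of 15 (0.06). The complex I assembly factors had 2 higher and 2 lower of 6. Without the 4 rats the counts were 8 higher and 1 lower for complex I, 2 higher for complex II, 1 higher for complex III, 6 higher and 2 lower for complex IV, 3 higher for complex V, and cytochrome c higher. The medians of the complexes then lay between 0.04 and 0.17.

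**Figure D2:**
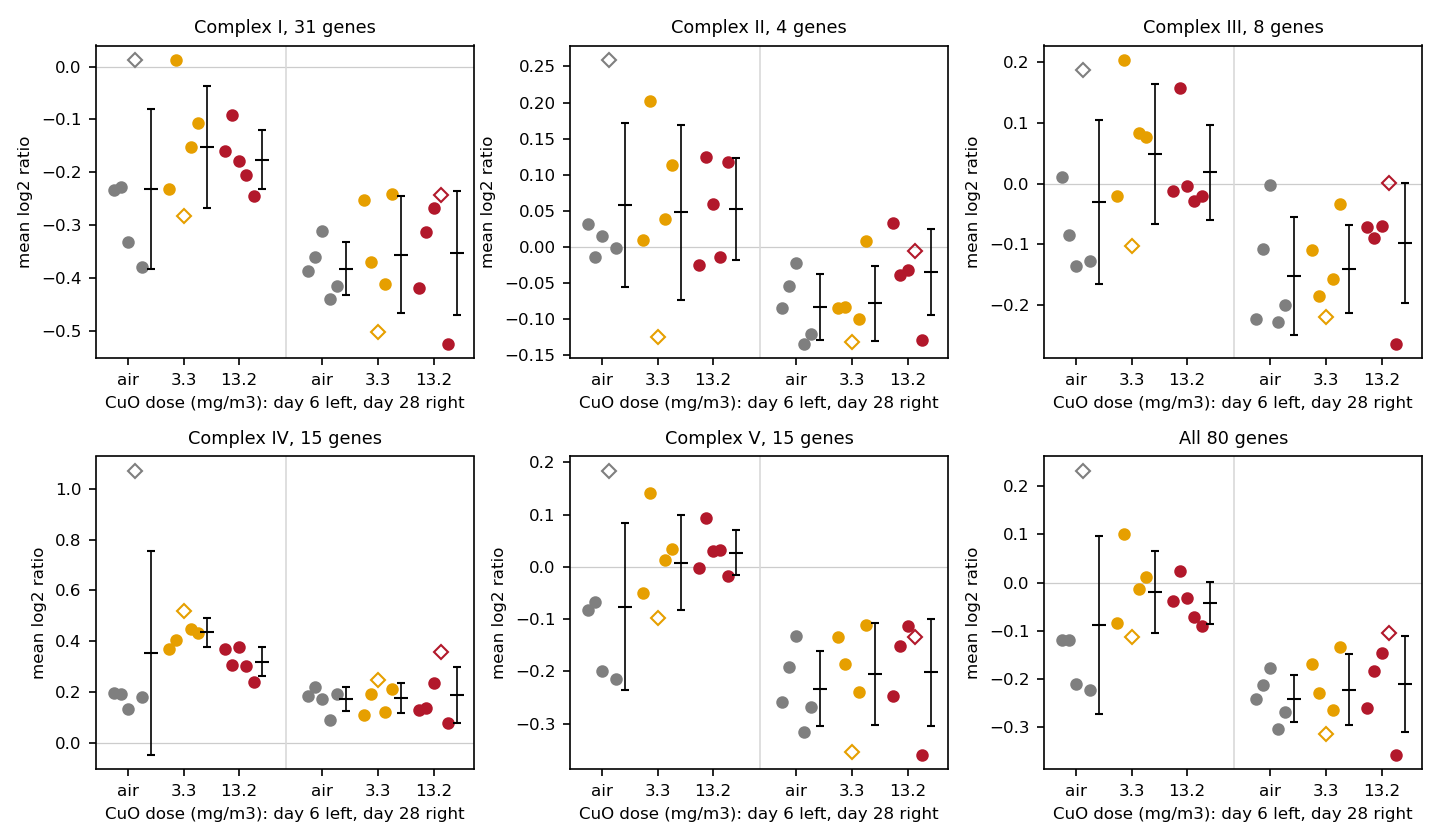
Mean log2 ratio (vertical axis) over the genes of each complex in every rat, by dose and day (horizontal axis), with the mean and SD of each group of 5 rats in black. Open diamonds are the 4 rats with high heart muscle markers. Rat 4, in the air group of day 6, has the highest mean of its group in every panel, and for complex IV it lies at 1.07, against 0.13 to 0.20 in the other 4 air rats.

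In complex IV the muscle forms of subunits 8 and 6a moved in opposite directions, the second of them only without rat 4. Cox8b was 6.74-fold lower at the high dose on day 6, the largest change of the 80 genes with every rat in the fit; without rat 4 that of Cox6a2 was larger. Its log2 ratios were 2.39, 2.35, 1.58, 2.01 and 1.26 in the high dose rats, against 4.22, 4.0, 3.81, 6.87 and 4.46 in the air rats. All 5 exposed rats were below all 5 air rats, and the highest air value was that of rat 4. The log2 fold change was -2.75 ± 0.37 (SE, n = 5 rats per group, adjusted p = 1.127e-06). Without rat 4 it was -2.20 ± 0.24, a 4.60-fold decrease (adjusted p = 4.524e-08), and within the 4 slides it was -1.99, -2.36, -4.49 and -2.23, with rat 4 as the air rat of the third slide.

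At the low dose on day 6 Cox8b measured 3.71, 3.25, 4.05, 3.46 and 3.34, between the other groups and overlapping the air rats. The fold change against air was -1.11 ± 0.37 and did not pass (adjusted p = 0.0687); it passed with slide as a block at -1.25 (adjusted p = 0.01814), and was -0.56 without rat 4 (adjusted p = 0.1713). The high dose was lower than the low dose by -1.64 ± 0.37 on the log2 scale (adjusted p = 0.003214), with no overlap of the rats. On day 28 the groups overlapped, with 4.12, 3.43, 4.37, 4.22 and 3.98 in high dose rats and 4.78, 4.25, 4.19, 4.04 and 4.26 in air rats, and 2 high dose rats lay below every air rat. The fold change there was -0.28, with a 95% interval of -1.04 to 0.48, and the high dose effect differed between the days by 2.47 ± 0.52 (adjusted p = 0.001174). That difference was 1.92 without rat 4 and 1.88 without the 4 rats, and it passed both times.

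Cox6a2 went the other way in all rats but rat 4. It measured 1.48, 0.91, 1.95, 1.44 and 1.85 in the high dose rats of day 6, against -2.18, -1.80, -1.91, 5.52 and -1.26 in the air rats. The 5 exposed rats lay above 4 of the air rats and below rat 4. With rat 4 in the fit the fold change was 1.86 ± 0.90 (95% interval 0.01 to 3.70) and did not pass (adjusted p = 0.1082). Without rat 4 Cox6a2 rose by 3.32 ± 0.47, a 9.96-fold increase (adjusted p = 3.308e-06), and within the slides the difference was 2.63, 3.45, -4.03 and 3.87, the negative one against rat 4.

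The low dose rats of day 6 measured 0.55, 0.77, 2.27, 0.76 and 0.85 for Cox6a2, the highest of them rat 49, the other rat of that day with high heart muscle markers. They too lay above 4 of the air rats. The fold change against air was 1.37 ± 0.90 with every rat (adjusted p = 0.4151), 2.83 ± 0.47 without rat 4 (adjusted p = 0.0001825) and 2.52 ± 0.21 without the 4 rats (adjusted p = 2.463e-08). Without the 4 rats the high dose also exceeded the low dose, by 0.79 ± 0.20 (adjusted p = 0.01196). On day 28 the high dose rats measured -2.17, -1.42, -2.10, 0.51 and -1.61 and the air rats -1.79, -2.25, -2.08, -1.84 and -1.87. The value of 0.51 was that of rat 83, and without the 4 rats the fold change was 0.14 ± 0.20 (adjusted p = 0.7717). The high dose effect then differed between days 6 and 28 by -3.18 ± 0.28 (adjusted p = 3.099e-08), a difference that did not pass with every rat in the fit (-1.25, adjusted p = 0.5668).

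**Figure D3:**
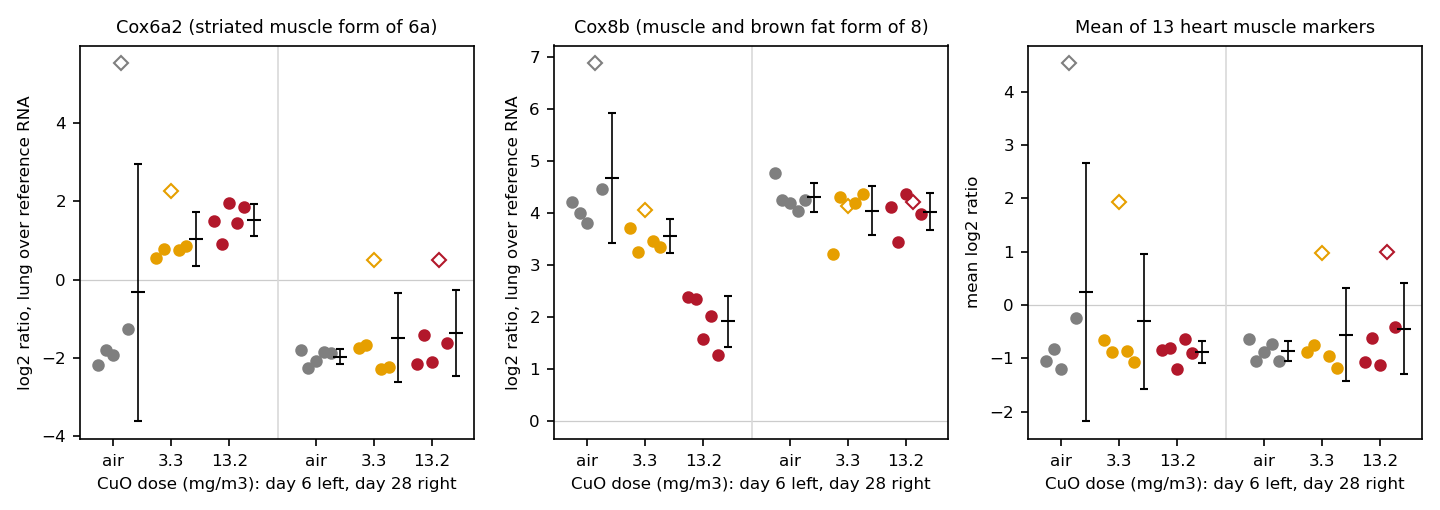
Log2 ratios of Cox6a2 (left) and Cox8b (middle) and the mean log2 ratio of 13 heart muscle markers (right) in every rat, by dose and day (horizontal axis), with the mean and SD of each group in black. Open diamonds are the 4 rats with high heart muscle markers. On day 6 the filled points of Cox6a2 lie between 0.91 and 1.95 in high dose rats and between -2.18 and -1.26 in air rats, while those of Cox8b lie between 1.26 and 2.39 in high dose rats and between 3.81 and 4.46 in air rats.

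The stretches before the transcript starts of Cox6a2, Cox8b and Cox8a are shown because the muscle forms moved and the general form Cox8a did not pass the test. Each is the 250 bases before the RefSeq start, on the minus strand of GRCr8: Cox6a2 at chr1:192219717-192219966, Cox8b at chr1:205408274-205408523 and Cox8a at chr1:213833624-213833873. Capitals mark matches, on either strand, to the E box (CANNTG, bound by muscle regulators among others), the MEF2 consensus of muscle genes, CCGGAAG (read by GABP) or the NRF1 consensus.
Cox6a2: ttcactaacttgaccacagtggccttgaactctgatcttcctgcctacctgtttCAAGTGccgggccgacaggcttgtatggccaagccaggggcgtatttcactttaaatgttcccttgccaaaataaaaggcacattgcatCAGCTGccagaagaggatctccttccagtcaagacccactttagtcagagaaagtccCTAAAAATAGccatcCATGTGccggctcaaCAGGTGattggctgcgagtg
Cox8b: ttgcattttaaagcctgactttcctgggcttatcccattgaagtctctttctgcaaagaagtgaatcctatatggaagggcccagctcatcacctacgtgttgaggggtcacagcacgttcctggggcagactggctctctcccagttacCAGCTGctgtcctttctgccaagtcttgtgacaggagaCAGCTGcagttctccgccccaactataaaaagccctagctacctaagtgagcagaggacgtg
Cox8a: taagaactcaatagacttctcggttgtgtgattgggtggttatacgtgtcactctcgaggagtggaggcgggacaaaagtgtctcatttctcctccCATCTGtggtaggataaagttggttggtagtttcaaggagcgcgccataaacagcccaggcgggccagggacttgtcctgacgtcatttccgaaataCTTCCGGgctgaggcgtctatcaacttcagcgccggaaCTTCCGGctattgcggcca
Cox6a2 held 4 E boxes and 1 MEF2 match, Cox8b 2 E boxes, and Cox8a 1 E box and 2 GABP matches, with no overlaps among them. A match is a description of the letters, not of binding. Of the respiratory chain genes, 73 had an entry in the promoter table. CCGGAAG was in 28.8% of their windows, beside 7.27% of all 33469 windows, and the NRF1 consensus in 8.22% beside 0.762%. The E box was in 54.8% beside 65.5%, and the MEF2 consensus in 1.37% beside 2.96%. Their median GC content was 56%, beside 51.2% over all windows.

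Most other muscle markers read here did not pass the test, but many were dim. Well above background on every array were 7 of 13 heart muscle, 1 of 5 measured skeletal muscle and 2 of 4 measured brown fat markers. Ckmt2 and Ucp1 were so on 5 arrays each, and Myh7 on 6. For markers near background in most rats, not passing says little about a change. Of the 13 heart muscle markers, 0 passed at the high dose on day 6 with every rat. Their fold changes ran from -1.87 to -0.06. With rat 4 among the air rats their SE reached 1.14, so not passing in this fit says little about them. Without the 4 rats 1 did, the troponin T gene Tnnt2, which rose by 1.33 ± 0.24 (adjusted p = 0.0001072). Their mean was -1.20 to -0.64 in the high dose rats and -1.19 to -0.24 in the air rats other than rat 4. Of 8 skeletal muscle markers listed, 5 were measured and 2 were higher, Acta1 (skeletal muscle actin) by 0.65 ± 0.19 and Tnnt3 (fast muscle troponin T) by 0.69 ± 0.19 (adjusted p = 0.008734 and 0.004426), while Myh2 and Myh4 were not above the filter. Of 6 brown fat markers, 4 were measured and 0 passed. Their mean was -0.41 to -0.08 in high dose rats and -0.49 to 1.15 in air rats, with the 1.15 in rat 4 and 0.49 in rat 5. Rat 5, which stays in the fits without the 4 rats, also had the highest Ucp1 of the air rats, 2.30 against 0.25 to 0.57. Some of its heart muscle markers were above those of air rats 1 to 3, among them Myl7 at 2.79, Myh6 at 2.14 and Myh7 at 1.29. Its Tnni3, Actc1, Ryr2, Pln and Casq2 did not exceed the highest of air rats 1 to 3. The part of muscle, fat or inflammatory cells in these changes was not tested.

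The general forms of the same subunits did not pass the test. Cox6a1 measured 0.17, 0.17, 0.19, 0.24 and 0.25 in high dose rats of day 6, against 0.12, 0.34, 0.40, 0.24 and 0.31 in air rats, and its fold change was -0.08, with a 95% interval of -0.21 to 0.05. Cox8a measured -0.18, -0.10, -0.17, -0.41 and -0.42 in high dose rats and -0.35, -0.35, -0.12, -0.28 and -0.15 in air rats, with a fold change of -0.01 (-0.23 to 0.21). The groups overlapped for both genes. The paired forms of subunit 4, which is the first nuclear subunit built into the complex and whose second form is induced by low oxygen, did not pass either: Cox4i1 at -0.19 (-0.41 to 0.03) and Cox4i2 at -0.02 (-0.27 to 0.23). Cox7a2, the general form of subunit 7a, was at 0.01 (-0.23 to 0.24).

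Cox7a2l, the factor that joins complexes III and IV into supercomplexes, fell at the high dose on day 6. It measured -0.15, -0.23, -0.24, -0.30 and -0.12 in high dose rats, against 0.28, 0.26, 0.42, 0.13 and 0.38 in air rats. The groups did not overlap, every exposed rat was below 0 and every air rat above it, and the fold change was -0.50 ± 0.09 (adjusted p = 5.854e-05). It was also lower than at the low dose, by -0.34 ± 0.09 (adjusted p = 0.01003), and the low dose did not differ from air past the threshold (-0.16, adjusted p = 0.3349). With median centring the high dose value was -0.39 and did not pass (adjusted p = 0.082).

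Cox6b1, a subunit of the outer face of complex IV, was higher in the fit of the 6 group means, where no other gene of that complex was. With slide as a block, Cox5b and Cox7b were higher too, by 0.39 and 0.41 (adjusted p = 0.01677 and 0.03876). It measured -0.33, -0.12, -0.14, -0.21 and -0.36 in high dose rats, against -0.52, -0.50, -0.49, -0.41 and -0.68 in air rats. The groups did not overlap, but the fold change of 0.29 ± 0.11 was close to the threshold (adjusted p = 0.04219), and it did not pass when any of 7 of the 10 rats was left out, with adjusted p up to 0.1097. Its other 2 probes were higher as well, by 0.37 and 0.26. Ndufa4, a complex IV subunit named after complex I, measured 0.24, 0.37, 0.16, 0.24 and 0.08 in high dose rats and 0.10, 0.09, -0.07, 0.54 and -0.04 in air rats, with the 0.54 in rat 4. It did not pass with every rat (0.09, adjusted p = 0.4805) and rose without the 4 rats (0.20, adjusted p = 0.02844). The structural subunits Cox5a, Cox5b and Cox7b also rose without the 4 rats, by 0.49, 0.46 and 0.51.

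In complex V, 2 of 15 genes rose at the high dose on day 6. Atp5pb, a subunit of the stalk that holds the catalytic head in place, measured 0.54, 0.57, 0.68, 0.57 and 0.65 in high dose rats, against 0.05, 0.14, -0.03, 0.30 and -0.16 in air rats. The high dose rats were close together and all above the air rats, with a fold change of 0.54 ± 0.12 (adjusted p = 0.0006515). It was also higher than at the low dose by 0.37 ± 0.12 (adjusted p = 0.04281). Atp5if1, the inhibitor that blocks ATP hydrolysis when the proton gradient collapses, measured 0.04, 0.00, 0.00, 0.01 and 0.03 in high dose rats, against -0.34, -0.33, -0.26, -0.26 and -0.44 in air rats. The groups did not overlap (0.34 ± 0.08, adjusted p = 0.001868), and the rise was between 0.26 and 0.39 within each of the 4 slides. The catalytic subunits Atp5f1a and Atp5f1b did not pass, at 0.06 and 0.18.

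Of the complex I subunit genes, Ndufs4, Ndufb2 and Ndufa10l1 rose and Ndufa6 fell. Ndufs4, an accessory subunit needed for a stable complex, measured -0.20, -0.15, -0.30, -0.23 and -0.17 in high dose rats, against -0.36, -0.50, -0.65, -0.31 and -0.69 in air rats. The groups did not overlap, narrowly, and the fold change was 0.29 ± 0.07 (adjusted p = 0.0008568). A second, much dimmer Ndufs4 probe went the other way by -0.32 ± 0.10 (adjusted p = 0.01471), so the direction rests on the brighter probe. Ndufb2, an accessory subunit of the membrane arm, measured 0.34, 0.16, 0.34, 0.27 and 0.32 in high dose rats, against 0.03, 0.01, -0.16, 0.16 and -0.20 in air rats. The groups met at 0.16, and the fold change was 0.32 ± 0.08 (adjusted p = 0.0014).

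Ndufa10l1, a paralogue of the accessory subunit gene Ndufa10, measured -0.62, -0.36, -0.43, -0.67 and -0.57 in high dose rats, against -0.85, -0.91, -0.74, -0.70 and -0.78 in air rats. The lowest exposed rat lay just above the highest air rat (0.27 ± 0.09, adjusted p = 0.01596), and without rat 76 it did not pass (adjusted p = 0.05243). Probes of such near copies can share signal, and Ndufa10 itself was at -0.26 (adjusted p = 0.0708). Ndufa6, an accessory subunit, was the only lower one in the fit of the 6 group means, at -0.24 ± 0.08 (adjusted p = 0.01735), with overlapping groups. Ndufs8 and Ndufv1, which carry iron-sulphur clusters, did not overlap between groups (0.50 and -0.20) but did not pass (adjusted p = 0.0691 and 0.0579). With slide as a block both passed, Ndufs8 higher at 0.56 and Ndufv1 lower at -0.21 (adjusted p = 0.03434 and 0.03438), as did Ndufa10, lower at -0.31 (adjusted p = 0.02638).

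The assembly factors of complex I split. Ndufaf1, which helps build the membrane arm, measured -0.85, -0.97, -0.86, -1.09 and -0.83 in high dose rats, against -1.58, -1.34, -1.52, -1.46 and -1.63 in air rats. Every exposed rat was above every air rat, and the rise was 0.58 ± 0.13 (adjusted p = 0.0005706). Ndufaf7, a methyltransferase that modifies a complex I subunit, rose by 0.52 ± 0.13 at its brighter probe (adjusted p = 0.00306) and was at -0.02 at its dimmer one. Ndufaf3 and Ndufaf8 fell by 0.29 and 0.27 on the log2 scale (adjusted p = 0.02674 and 0.02682), with overlapping groups, and Ndufaf8 did not pass without the 4 rats.

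In complex II, 1 of 4 genes rose. Sdhb, the iron-sulphur subunit of succinate dehydrogenase, measured -0.20, -0.11, 0.04, -0.03 and 0.16 in high dose rats, against -0.29, -0.32, -0.31, -0.03 and -0.38 in air rats, where the -0.03 was rat 4. It rose by 0.24 ± 0.08 (adjusted p = 0.02255), or by 0.29 ± 0.08 without the 4 rats (adjusted p = 0.003559), and was -0.17 on the slide that held rat 4. It did not pass with rat 77, rat 79 or air rat 5 left out, with adjusted p up to 0.0821. Nor did it pass in 5 of the 11 alternatives other than leaving out 1 rat. The other subunits did not pass with every rat: the flavoprotein Sdha at -0.22 (-0.42 to -0.01), and the membrane anchors Sdhc at 0.15 (-0.04 to 0.33) and Sdhd at -0.19 (-0.39 to 0.00). Cycs, the electron carrier that also triggers the apoptosome, measured -0.90, -0.78, -0.56, -0.60 and -0.60 in high dose rats, against -0.94, -0.90, -0.88, -0.25 and -0.84 in air rats, with the -0.25 in rat 4. It was at 0.08 (-0.16 to 0.31) with every rat and at 0.20 without the 4 rats (adjusted p = 0.04254), and its dimmer probe was at 0.39 with every rat (adjusted p = 0.03818).

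No gene of complex III passed in the fit of the 6 group means. The Rieske iron-sulphur protein gene Uqcrfs1 was highest at 0.35 ± 0.14 (adjusted p = 0.0545), and it passed with slide as a block, at 0.37 (adjusted p = 0.02919), and without the 4 rats, at 0.48 (adjusted p = 0.004368). The core subunits Uqcrc1 and Uqcrc2 were at 0.15 and 0.02, and the hinge protein gene Uqcrh at -0.12.

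**Figure D4:**
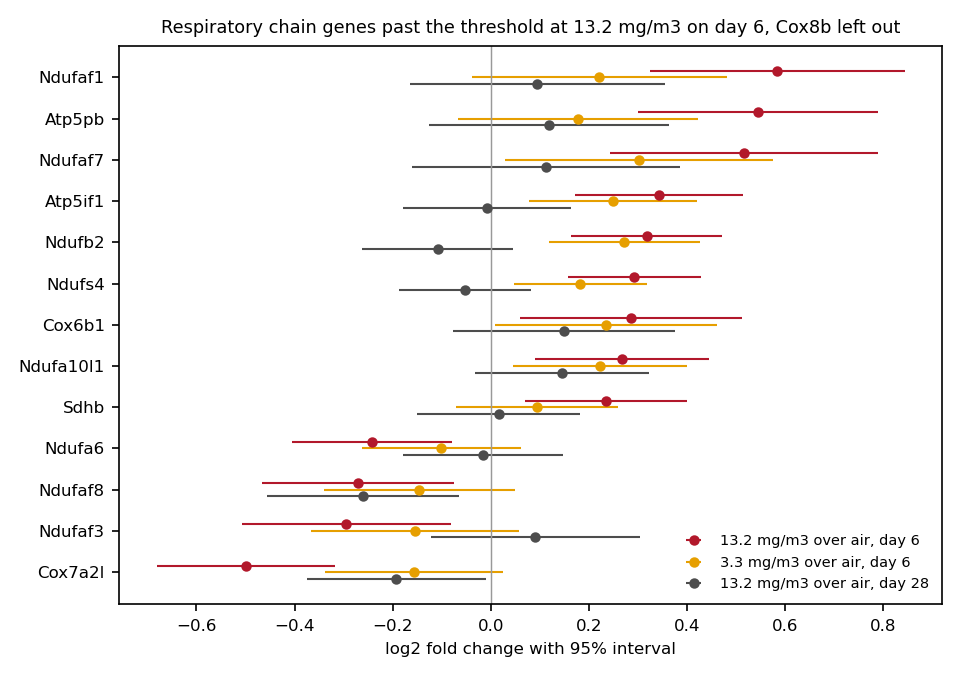
Log2 fold change against air, with its 95% interval (horizontal axis), of the 13 genes other than Cox8b that passed at the high dose on day 6 (vertical axis), for the high dose on day 6 (red), the low dose on day 6 (orange) and the high dose on day 28 (grey). The 13 red values run from -0.50 for Cox7a2l to 0.58 for Ndufaf1. All but Ndufb2 among the orange values, and all the grey ones, did not pass.

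At the low dose on day 6, 1 of the 80 genes passed with every rat (1.25%), beside 6.72% of all genes (4.97% higher and 1.75% lower). Ndufb2 measured 0.27, 0.27, 0.10, 0.26 and 0.30 in low dose rats, against 0.03, 0.01, -0.16, 0.16 and -0.20 in air rats, and rose by 0.27 ± 0.08 (adjusted p = 0.02356). The lowest exposed value was that of rat 49, and the groups overlapped through rat 4. No respiratory chain gene had groups apart, beside 7.58% of all genes. The median fold change was 0.06, beside 0.00 over all genes. It was 0.12 without rat 4 and 0.15 without the 4 rats, beside 0.001 and -0.002 over all genes. Across the alternatives it ran from 0.03 to 0.15. With every rat, 11 of the 80 had an unadjusted p under 0.05 (13.8%, beside 20.3% of all genes). Without the 4 rats 26 did, beside 4000 of all 18410 genes. Of the 80 intervals, 71 lay within 1.5-fold with every rat (88.8%, beside 78.8% of all genes). Without rat 4, 5 genes rose and 0 fell (6.25%, against 7.13% of all genes). Without the 4 rats 9 rose and 0 fell (11.2%, against 7.53% of all genes), among them Ndufs4, Ndufb2, Ndufb10, Uqcr10, Ndufa4, Cox6a2, Atp5pb and Atp5if1. The rises of those named other than Cox6a2 were 0.25 to 0.50, that of Ndufs4 from its brighter probe alone.

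On day 28, after 22 days without exposure, limma called 0 of the 80 genes at the high dose, beside 0.185% of all genes (0.076% higher and 0.109% lower), with 9 at an unadjusted p under 0.05 (11.2%, beside 15.1% of all genes). At the low dose it called 0 as well, beside 0.0109%, with 4 at an unadjusted p under 0.05 (5%, beside 5.95%). Without the 4 rats, 0 of the 80 genes were called at either dose. At an unadjusted p under 0.05 there were then 9 of 80 at the high dose, beside 2364 of all 18410 genes. At the low dose there were 21 of 80, beside 2802 of 18410, so the low share with every rat depended on those rats. In neither comparison did any gene have groups apart, beside 1.49% and 0.663% of all genes. Of the 80 intervals, 71 at the high dose and 74 at the low dose lay within 1.5-fold (88.8% and 92.5%, beside 81.7% and 85.8% of all genes). The high dose effect differed between the days for 6 genes (7.5%, beside 16.7% of all genes, 5.49% higher and 11.2% lower). Higher on day 28 relative to day 6 were Cox8b, Sdha (0.41 ± 0.14) and Ndufv1 (0.34 ± 0.11), and lower were Ndufb2 (-0.43 ± 0.11), Ndufs4 (-0.34 ± 0.09) and Atp5if1 (-0.35 ± 0.12). Sdha and Ndufv1 did not pass with slide as a block or without rat 4. The value of Ndufs4 rests on its brighter probe, as the dimmer one went the other way at the high dose on day 6. The low dose effect differed for 0 genes, beside 1.97% (0.31% higher and 1.66% lower), with 7 at an unadjusted p under 0.05 (8.75%, beside 10.5%).

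Between the doses on day 6, 4 of the 80 genes passed (5%, beside 11.9% of all genes, 8.02% higher and 3.86% lower): Cox8b, Cox7a2l and Ndufb10 lower and Atp5pb higher at the high dose. Ndufb10, an accessory subunit of the membrane arm of complex I, measured -0.35, -0.20, -0.39, -0.34 and -0.47 in high dose rats, against 0.08, 0.55, -0.21, 0.10 and 0.15 in low dose rats. The groups met only through rat 49, and the difference was -0.48 ± 0.12 (adjusted p = 0.009336). Against air its brighter probe was at -0.20 (adjusted p = 0.207) and its dimmer one fell by 0.25 on the log2 scale (adjusted p = 0.01324). Among air rats, day 28 against day 6 gave 4 lower genes and 0 higher, beside 2.94% of all genes (1.86% higher and 1.09% lower). The 4 were Ndufb9 (-0.45), Uqcrc2 (-0.37), Ndufaf4 (-0.31) and Uqcrh (-0.30). Neither the count of passing genes nor its direction was stable. It was 1 higher and 1 lower without rat 4, and 3 higher and 2 lower without the 4 rats. It was 24 in all without air rat 8 of day 28 and 0 without air rat 9 of day 28. At an unadjusted p under 0.05 there were 40 of the 80 (50%, beside 24.2% of all genes). The median log2 fold change of the 80 was -0.145, beside 0.013 over all genes. It stayed negative without rat 4 (-0.07, beside 0.02), with slide as a block (-0.12, beside 0.01) and with median centring (-0.36, beside -0.11).

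Genes that serve the chain from outside were read from 6 lists for the comparison of high dose with air on day 6. Among 17 measured factors of complex IV assembly and copper delivery, 5 rose and 2 fell (41.2%, beside 36.5% of all genes). The share that passed was 13.6% for factors of other complexes, 29.4% for the tricarboxylic acid cycle, 27.8% for mitochondrial gene expression, 16.7% for fatty acid oxidation and 46.2% for carriers. Coa3 and Coa7, both assembly factors, rose by 0.66 ± 0.08 and 0.69 ± 0.13 (adjusted p = 1.209e-07 and 0.0001915), and Surf1 and Cox20 fell by 0.23 and 0.24 on the log2 scale. The median of these 17 was 0.12. Of 22 factors of other complexes, 3 rose and 0 fell, among them Tmem126b, a complex I factor (0.40 ± 0.09), and Uqcc3, a complex III factor (0.31 ± 0.09), which also rose at the low dose by 0.34 and 0.33 (adjusted p = 0.01944 and 0.01742).

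In the tricarboxylic acid cycle, which feeds the chain, 4 of 17 rose and 1 fell. Suclg1, of succinyl-CoA ligase, rose by 0.52 ± 0.08 and Pdha1, of pyruvate dehydrogenase, fell by 0.66 on the log2 scale (adjusted p = 4.939e-06 and 3.548e-07). Both passed in the same directions at the low dose, at 0.29 and -0.35 (adjusted p = 0.01993 and 0.007229). Of 18 genes of mitochondrial gene expression and its regulators, 2 rose and 3 fell. The nuclear receptor gene Esrra rose by 0.41 ± 0.08, while Gabpa, which encodes the DNA-binding subunit of GABP, and the coactivator gene Ppargc1a fell by 0.36 and 0.42 on the log2 scale (adjusted p = 0.0004382 and 0.0021). Across 11 alternatives other than leaving out 1 rat, Gabpa ran from -0.488 to -0.114 and Esrra from 0.323 to 0.445. Each did not pass in 1 of them. Of 18 genes of fatty acid oxidation 2 rose and 1 fell, the carnitine carrier Slc25a20 at 0.49 ± 0.07 and the dehydrogenase Acadm at -0.48 ± 0.09 among them.

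Of 13 mitochondrial carriers 4 rose and 2 fell. The citrate carrier Slc25a1 rose by 1.1 ± 0.15 and the dicarboxylate carrier Slc25a10 by 0.98 ± 0.11 (adjusted p = 2.4e-06 and 3.605e-08), and they rose at the low dose by 0.91 and 0.64. The uncoupling protein gene Ucp3, another gene of muscle and brown fat, fell by 1.22 on the log2 scale (adjusted p = 4.278e-05). Without the 4 rats the 6 lists changed by at most 2 genes each. Inflammatory cell markers moved in the same lungs: 5 of 5 neutrophil markers were higher at the high dose on day 6, with means of 2.49 to 3.01 against 0.45 to 0.78 in air rats, and of 7 macrophage markers 4 were higher and 1 lower, with means of 0.36 to 1.55 against 0.05 to 0.25. Of 6 alveolar type I markers 4 were lower and 0 higher.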

How the data were processed

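The deposited arrays give an intensity per spot and channel, read by Agilent Feature Extraction 11.0.1.1, per the submitters' processing notes and the file headers. The labels disagree on the reference RNA, which the labelling protocol names as mouse and the second channel as rat, from 14 cell lines. The authors' deposited value table, in log2 ratios, was used as an alternative. Its method was not given in the sources used here. Compared with loess ratios without background correction, its columns ran in the same direction (lung over reference) and correlated at 0.997 to 1.000, with medians of -0.0314 to -0.00539; its exact centring is unknown. Scanner log10 ratios, dye-normalized per the file headers, were another alternative.

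Median spot and background intensities were corrected with normexp (offset 50), normalized by loess within arrays with control and outlier spots at weight 0, and averaged per probe. Genes needed Cy5 well above background on 5 of 30 arrays. Accessions were matched to RefSeq GRCr8, which named 18005 of 30367 probes. Array coordinates refer to an older assembly and are not printed. The 6 group means of 30 rats were fitted with limma 3.58.1 in R 4.3.3 (lmFit, eBayes), with Benjamini-Hochberg adjustment over 18410 genes. Errors are SE unless stated, and 5 rats a group limit the precision. The spread is that between separate rats. The fit was tested on simulated data. Alternatives were other background, scaling, filter and probe choices, slide as a block, the compared groups alone and leaving out rats. A slide, from the array barcode, holds several groups.

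Members, pathway and marker lists were chosen with earlier results of these data known. Genes were named by rule: members with the smallest p among those past the threshold without overlap of high dose and air rats on day 6 (up to 4 each of complexes I, IV and V, 2 each of complex I assembly factors and complex III), up to 3 called in each other comparison with air, a panel of 17, and the 2 genes of each of 6 lists with the smallest p. Other genes are named to complete small counts or as contrasts, after their values were seen. Protein sequences were not used here.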

Additional observations from a re-analysis of the deposited data

Results flagged for a closer look

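Each group of 5 rats was searched for a rat far from the other 4 for the 21 respiratory chain genes named by rule and for 7 means (the complexes, assembly factors and all 80 genes), 168 groups in all, and 19 had one. The other genes named were not searched. The limit was Dixon's 95% critical value, which chance passes in about 1 group in 20.

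Rat 4 of the air day 6 group, the rat with the highest heart muscle markers, accounted for 8 of the 19. It measured 5.52 for Cox6a2 against -2.18 to -1.26 in the other 4 rats, 6.87 for Cox8b against 3.81 to 4.46, 0.54 for Ndufa4 against -0.07 to 0.10, -0.25 for Cycs against -0.94 to -0.84, and -0.03 for Sdhb against -0.38 to -0.29. Its means were 0.26 for complex II against -0.01 to 0.03, 1.07 for complex IV against 0.13 to 0.20, and 0.23 for all 80 genes against -0.22 to -0.12.

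The other 3 rats with high heart muscle markers gave 6 more. Rat 49 (low dose, day 6) measured 2.27 for Cox6a2 against 0.55 to 0.85, and 0.10 for Ndufb2 against 0.26 to 0.30. Rat 83 (high dose, day 28) measured 0.51 for Cox6a2 against -2.17 to -1.42. Rat 54 (low dose, day 28) measured 0.49 for Cox6a2 against -2.27 to -1.66, -0.36 for Atp5pb against -0.04 to 0.07, and -0.83 for Sdhc against -0.55 to -0.43.

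Among the remaining rats, rat 52 (low dose, day 28) measured 3.22 for Cox8b against 4.13 to 4.37, and -1.02 for Ndufaf1 against -1.66 to -1.54. In the high dose group of day 28, rat 82 measured 0.02 for Cox7a2l against 0.36 to 0.45, and rat 84 measured 0.09 for Sdha against 0.44 to 0.53. Rat 76 (high dose, day 6) had a complex III mean of 0.16 against -0.03 to 0.00.

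The effect of the high dose differed between day 28 and day 6, by the interaction term of limma, for 6 genes: Cox8b by 2.47, Sdha by 0.41, Ndufv1 by 0.34, Ndufs4 by -0.34, Atp5if1 by -0.35 and Ndufb2 by -0.43. Without rat 4 the value of Cox8b was 1.92. That of Ndufs4 rests on its brighter probe.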

How the results depend on the processing

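At the high dose on day 6 the 9 higher genes became 2 with median centring, 16 with slide as a block, 14 with the compared groups alone and 23 without the 4 rats with high heart muscle markers, an alternative chosen after seeing the data; leaving out 1 rat gave 7 to 20, the 20 without air rat 4. The 5 lower genes became 8 with the scanner's log ratios, 1 with median centring, 8 with Cy5 alone, 12 in the authors' deposited table, and 3 to 7 without 1 rat, the 3 without rat 78. At the low dose on day 6 the 1 higher gene became 0 with median centring, Cy5 alone, the authors' deposited table or the compared groups alone, 9 without the 4 rats, and 0 to 5 without 1 rat; the 0 lower genes became 1 with the scanner's log ratios, Cy5 alone or slide as a block, and 0 to 1 without 1 rat. The 0 lower genes of the high dose on day 28 became 0 to 1, the 1 without air rat 8. Between doses, 4 became 1 with median centring. Between air days, 4 became 0 with median centring, 8 with Cy5 alone or the compared groups alone, 2 with the mean over probes or slide as a block, and 0 to 24 without 1 rat. The difference of high dose effects, 6 genes, became 1 with median centring, 10 in the authors' deposited table, and 3 to 7 without 1 rat, the 3 without rat 77, rat 79 or air rat 10. That of low dose effects, 0 genes, became 2 without the 4 rats and 0 to 1 without 1 rat, the 1 without rat 49. Ndufs4 reversed to -0.012 with the mean over probes, since its dimmer probe ran the other way. Of the 11 alternatives other than leaving out 1 rat, Sdhb did not pass in 5, Cox6b1 in 4 and Ndufa10l1 in 4. The cause of the other shifts was not tested. Cox8b, Ndufaf1 and Atp5pb passed at the high dose on day 6 under every alternative run. No paired analysis was possible because no rat number is shared between groups.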
